A study of Arabidopsis thaliana with 21 samples.

Results

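The genes described here are 125 Arabidopsis root genes whose transcripts stood lower after nitrate in wild-type roots and in roots overexpressing KIN10. They were chosen from the 1128 genes that the authors listed for roots, by 5 conditions. The mean level in Ler with KCl was at least 1 FPKM (fragments per kilobase of transcript, scaled to mapped fragments). The mean with KNO3 was at most 0.5 of the mean with KCl in Ler, and likewise in KIN10ox. The files gave the gene neither a KEGG pathway nor a transcription factor family. The genes NLP8, NLP9, SPX1, MGD2 and GSTF7 and those described as cytochrome P450 were left out. WRKY24, AT5G50010 (a bHLH protein) and AT4G17900 (a PLATZ protein) are members although described as transcription factors or DNA-binding proteins, because the files give them no family. Level and ratio alone were met by 187 genes. The KCl and KNO3 values therefore chose the members, and their lower level with nitrate is given as a description with no test.

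Nitrate is both a nutrient and a signal for plants. Within minutes of its return, transcription factors of the NLP family, with NLP7 the best known, move into or stay in the nucleus and switch on genes of nitrate uptake and assimilation. Among the genes they switch on are the NIGT1/HRS1/HHO repressors, which lower genes used during nitrogen starvation. KIN10 is the catalytic subunit of SnRK1, a protein kinase that is active when sugar or energy is scarce and that restrains growth. Genes lowered by nitrate include transporters and enzymes that a starved root makes to find, move or recycle nutrients, and genes of dormancy and senescence.

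The study sequenced mRNA of roots and of leaf mesophyll protoplasts. Seedlings of Ler (the Landsberg erecta accession, the wild type) and KIN10ox (plants carrying the transgene p35S:KIN10-HA, driven by the broadly active viral 35S promoter) grew for 7 days on MGRL medium with 5 mM nitrate. All of them then spent 2 days on medium without nitrogen and then received KCl or KNO3, each at 5 mM, over 1 h, so KCl-treated plants of both genotypes were starved. Roots gave 4 groups of 3 libraries. Protoplasts came from Col-0 plants by the genotype and growth labels (their source label reads Landsberg erecta seedling instead), grown on soil for 4 weeks in 8 h light and 16 h dark. They were transfected with GFP, with NLP7-GFP, or with NLP7-GFP and KIN10-Myc, again with 3 libraries each. The number of independent KIN10ox lines is not given in the sources used here. KIN10 and NLP7 were not among the root genes listed, so the KIN10ox label was not checked by its own transcript.

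Root libraries held 19704850 to 20236839 mapped fragments and protoplast libraries 16190262 to 20437332, as recovered from counts and FPKM. None of 11 root cell markers was among the genes listed for roots, so the tissue label could not be checked this way. Of 15 leaf photosynthesis genes, 12 were listed. Their summed level was 373, 191 and 224 FPKM in the 3 Ler libraries with KCl and 397, 209 and 670 FPKM in those of KIN10ox. With KNO3 it was 161 to 170 FPKM in Ler and 78.1 to 120 FPKM in KIN10ox. Seed storage and oil genes, 7 of 11 listed, summed to 36.5, 4.54 and 112 FPKM in KIN10ox with KCl and to at most 8.0 FPKM in each of the other groups. KIN10ox replicates 1 and 3 with KCl thus stood apart, and Ler replicate 1 with KCl was highest of its group for the leaf genes. Their part in the results below was not tested beyond fits without those libraries.

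The sequences just upstream of 5 members are shown because these genes had the largest falls among members above 10 FPKM in Ler with KCl: the 3 markers of the set (AT1G64590, SUFE2 and OCT1) and the next 2. Each window is the 300 bases before the annotated start in the RefSeq TAIR10.1 assembly, 5′ to 3′, and overlaps no other gene. Capitals mark any of 7 motifs searched on both strands.
AT1G64590 promoter, chr1:23993177-23993476, plus strand: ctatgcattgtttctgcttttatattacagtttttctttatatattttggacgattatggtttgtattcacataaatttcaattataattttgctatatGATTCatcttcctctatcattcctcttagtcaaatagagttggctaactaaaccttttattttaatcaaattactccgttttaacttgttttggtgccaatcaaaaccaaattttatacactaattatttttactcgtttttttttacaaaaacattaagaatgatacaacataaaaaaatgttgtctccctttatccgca
SUFE2 promoter, chr1:25425934-25426233, plus strand: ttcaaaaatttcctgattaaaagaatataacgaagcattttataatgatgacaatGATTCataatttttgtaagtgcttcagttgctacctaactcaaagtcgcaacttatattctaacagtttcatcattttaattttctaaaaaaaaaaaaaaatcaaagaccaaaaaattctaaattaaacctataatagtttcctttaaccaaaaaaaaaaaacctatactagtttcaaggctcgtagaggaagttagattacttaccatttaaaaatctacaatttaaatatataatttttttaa
OCT1 promoter, chr1:27537890-27538189, plus strand: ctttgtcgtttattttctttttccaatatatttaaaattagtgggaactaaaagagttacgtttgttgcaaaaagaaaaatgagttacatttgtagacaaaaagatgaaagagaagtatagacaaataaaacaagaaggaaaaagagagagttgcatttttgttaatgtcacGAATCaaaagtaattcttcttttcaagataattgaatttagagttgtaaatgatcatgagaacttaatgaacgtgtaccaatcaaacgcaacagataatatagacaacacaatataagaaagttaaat
FLZ7 promoter, chr4:18466219-18466518, plus strand: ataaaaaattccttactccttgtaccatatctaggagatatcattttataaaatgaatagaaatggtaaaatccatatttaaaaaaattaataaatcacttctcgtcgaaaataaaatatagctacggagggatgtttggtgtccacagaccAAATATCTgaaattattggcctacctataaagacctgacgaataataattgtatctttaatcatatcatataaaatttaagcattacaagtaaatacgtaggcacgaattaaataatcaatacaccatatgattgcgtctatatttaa
AT5G67430 promoter, chr5:26909905-26910204, plus strand: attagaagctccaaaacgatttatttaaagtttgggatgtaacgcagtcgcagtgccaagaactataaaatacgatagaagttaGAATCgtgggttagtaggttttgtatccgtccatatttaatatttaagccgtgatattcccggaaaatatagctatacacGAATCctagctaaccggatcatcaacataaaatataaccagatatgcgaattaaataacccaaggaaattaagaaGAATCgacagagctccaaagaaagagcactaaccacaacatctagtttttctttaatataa

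In these windows the capitals are GAATC or its reverse complement GATTC in 4 genes, and AAATATCT in FLZ7. GAATC is the core that NIGT1/HHO repressors bind. It lay 201 to 197 bases before the start of AT1G64590, 245 to 241 before that of SUFE2, and 128 to 124 before that of OCT1. AT5G67430 had 3 copies, which began 216, 136 and 61 bases before its start. FLZ7 had none in its window, and its AAATATCT, another of the 7 motifs searched, lay 148 to 141 bases before the start.

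Over all 125 members, 71 windows (56.8%) held GAATC. The share was 44.9% among all 1128 genes listed for roots and 45.0% among 27443 protein-coding genes of the genome. The short letters occur often by themselves, and the share is a description. The longer NIGT1 motif GAATATTC was in 3.2% of members, 2.13% of listed genes and 1.02% of the genome. GNATATNC, which phosphate starvation regulators of the PHR1 type bind and which includes GAATATTC, was in 10.4%, 8.25% and 6.5%. AAATATCT was in 8.0%, 6.56% and 5.64%. The G-box CACGTG was in 8.8% of members, 9.22% of listed genes and 7.09% of the genome. TATCCA, known from sugar-starved cereal cells, was in 13.6%, 18.9% and 16.2%. The nitrate-responsive element that NLP proteins bind was in 0 member windows, in 0.266% of listed genes and in 0.04% of the genome.

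The fall of a gene is used below for its mean FPKM with KCl divided by that with KNO3, with an SE from the SD of both groups (n = 3 each). The median fall was 2.58 in Ler, from 2.01 to 20.2, and 2.6 in KIN10ox, from 2.01 to 73.4. Falls of at least 4-fold were seen in 13 members in Ler, 18 in KIN10ox and 9 in both. In Ler every KNO3 library was below every KCl library in 117 of 125 members, and 24.9% of all genes listed for roots showed that order. In KIN10ox it was 119 members, beside 38.9% of listed genes. These orders follow in large part from the rule, and nothing is read from them. In bulk roots, fewer cells of a type and less RNA per cell cannot be told apart.

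**Figure D1:**
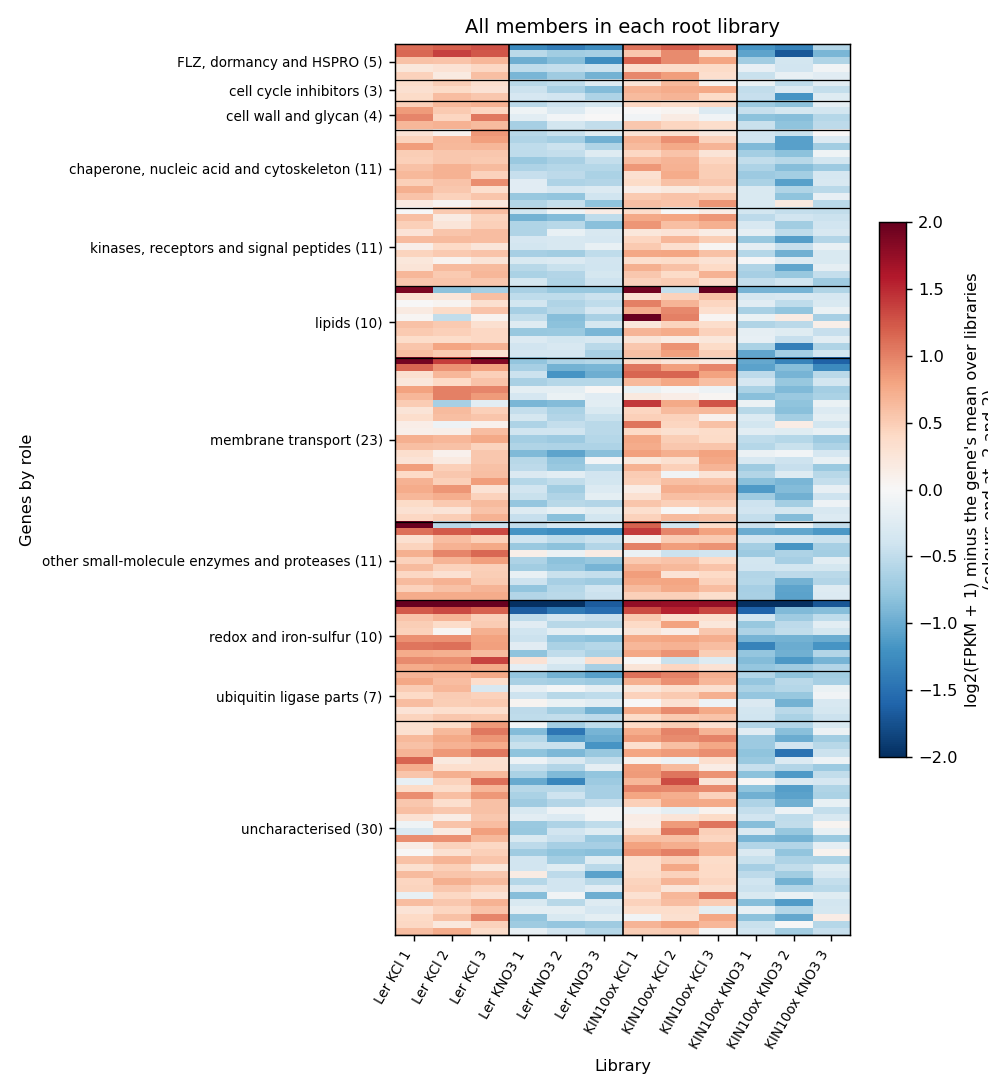
Level of all 125 members (rows, grouped by role, with the number of genes) in each of the 12 root libraries (columns), as log2(FPKM + 1) minus the gene's mean over the libraries. KCl libraries are mostly red (above the mean) and KNO3 libraries blue in both genotypes, and dark single cells in Ler KCl 1 and KIN10ox KCl 1 and 3 belong to AT2G10940, ESP and AT4G12490.

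Added over members, the 3 Ler libraries with KCl reached 2926, 2884 and 2902 FPKM, and those given KNO3 reached 1019, 968.7 and 985 FPKM. The KIN10ox sums after KCl were 2802, 2847 and 2636 FPKM, and after KNO3 they were 938, 857 and 1091 FPKM. The summed level was lower with KNO3 in every library of each genotype, which follows in large part from the rule. The 10 most abundant members held 52.1% of the sum in Ler with KCl. At the other end, 27 members were under 2 FPKM there, and the median member stood at 6.97 FPKM. The authors' deposited table for Ler listed 111 of the members, 101 of them with an adjusted p under 0.05. Their deposited table for KIN10ox listed 93, of which 84 were under that limit, and 79 members were in both. The rule used the same KCl and KNO3 values, so these counts follow in large part from it. The share of all listed genes under that limit is not given here, and nothing is read from the counts.

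**Figure D2:**
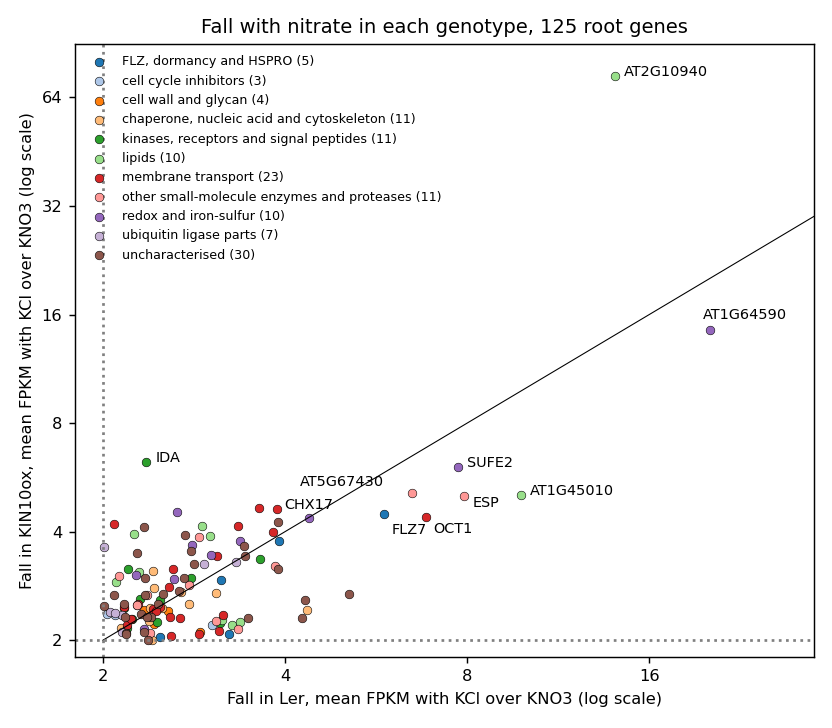
Fall with nitrate in Ler (horizontal) and KIN10ox (vertical), as the ratio of mean FPKM with KCl to that with KNO3, on log scales, for 125 genes coloured by role. Dotted lines mark the limit of 2-fold that the rule set, the diagonal marks equal falls, and most genes lie between 2 and 4 on both axes with AT1G64590 at 20.2 and 14.5.

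Falls differed by at least 2-fold between the genotypes in 3 members, and in 100 members they were within 0.5 of each other on the log2 scale. The fall was larger in Ler in 56 members and in KIN10ox in 69. Just inside the limits of the rule were AT5G66710, IDA and AT1G45010 with 1.0, 1.01 and 1.01 FPKM in Ler with KCl, and just outside were RAB18 at 0.963 and KAT1 and AT5G23240 at 0.983 FPKM. For the ratio of KNO3 to KCl in Ler, SMR3 at 0.492 and VUP1 and ATL35 at 0.497 were inside, and IGMT1 at 0.501, AT2G15830 at 0.504 and AT1G48870 at 0.505 were outside. In KIN10ox the nearest were DRM2 at 0.490, AT2G34610 at 0.498 and AT1G44160 at 0.498 inside, and DMP1 at 0.508, AT5G58570 at 0.510 and AT5G55050 at 0.51 outside.

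By role, 10 members were grouped as redox and iron-sulfur proteins. Their median fall was 2.92 in Ler and 3.72 in KIN10ox. AT5G07330, described in the files as an NFU1 iron-sulfur cluster protein, was placed among members of no assigned role. Its falls of 3.90 in Ler and 3.15 in KIN10ox are not in these medians. AT1G64590, on chromosome 1, encodes a protein of the short-chain dehydrogenase fold that binds NAD(P). It stood at 335, 297 and 287 FPKM in Ler with KCl and at 14.1, 12.5 and 18.9 FPKM with KNO3. In KIN10ox it stood at 212, 207 and 211 FPKM with KCl and at 13.3, 11.9 and 18.2 FPKM with KNO3. KCl and KNO3 libraries did not overlap in either genotype, and the fall was 20.2 ± 2.8 (SE) in Ler and 14.5 ± 1.9 (SE) in KIN10ox.

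SUFE2 encodes a SufE-like protein that activates the cysteine desulfurase step of iron-sulfur cluster assembly in plastids. It stood at 50.1, 53.3 and 48.4 FPKM in Ler with KCl and at 5.92, 7.18 and 6.55 FPKM with KNO3. In KIN10ox it stood at 52.4, 62.4 and 53.8 FPKM and at 6.14, 10.7 and 11.1 FPKM. Groups did not overlap within a genotype, and the falls were 7.73 ± 0.48 (SE) and 6.03 ± 1.1 (SE). SUFE2 was the one gene of a list of 8 plastid iron-sulfur assembly genes that the authors listed for roots; the other 7 were not analysed here.

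Glutaredoxins reduce disulfides with glutathione, and some CC-type plant glutaredoxins take part in nitrogen signalling. GRXC10 stood at 96.4, 98.6 and 81.0 FPKM in Ler with KCl and at 38.7, 29.2 and 30.3 FPKM with KNO3. In KIN10ox it stood at 72.6, 74.6 and 70.6 FPKM and at 17.4, 22.3 and 19.5 FPKM. GRXC6 averaged 51.9 ± 2.2 (SD) and 17.2 ± 2.8 FPKM in Ler and 47.8 ± 1.1 and 13.9 ± 0.37 FPKM in KIN10ox (n = 3 each). FRO8, a mitochondrial ferric reductase, was among the 10 largest falls, with 4.38 ± 0.49 (SE) in Ler and 4.35 ± 1.1 (SE) in KIN10ox from levels of 1.94 and 1.60 FPKM.

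The largest role group was membrane transport, with 23 members, a median fall of 2.59 in Ler and 2.48 in KIN10ox, and levels from 1.22 to 59.3 FPKM in Ler with KCl. OCT1 encodes an organic cation/carnitine transporter. It stood at 21.0, 14.1 and 20.0 FPKM in Ler with KCl and at 2.36, 2.81 and 2.90 FPKM with KNO3. In KIN10ox it stood at 6.48, 5.87 and 5.67 FPKM with KCl and at 1.85, 1.34 and 0.90 FPKM with KNO3. The falls were 6.83 ± 0.90 (SE) and 4.41 ± 0.90 (SE), with no overlap in either genotype. OCT1 was the one listed gene of its family of 6.

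CHX17, a cation/proton exchanger of the endomembranes that takes part in potassium balance, averaged 23.7 ± 3.2 (SD) and 6.10 ± 0.77 FPKM in Ler and 23.6 ± 2.1 and 5.09 ± 0.89 FPKM in KIN10ox (n = 3 each). Its falls were 3.89 ± 0.42 (SE) and 4.64 ± 0.53 (SE). The most abundant transporter was OPT4, an oligopeptide transporter, at 67.9, 53.0 and 57.1 FPKM in Ler with KCl and at 26.0, 22.2 and 25.1 FPKM with KNO3. The KIN10ox libraries of OPT4 lay in similar ranges, 52.7 to 62.0 and 22.2 to 27.1 FPKM. Metal transporters were also members: ZIP5 (zinc uptake family) had falls of 2.28 and 2.52, IRT2 (iron) of 2.28 and 2.51, and MTPA2 (zinc sequestration in the vacuole) of 2.17 and 2.48, in Ler and KIN10ox in turn. PROT2 moves proline and UMAMIT17 belongs to an amino acid exporter family, and their falls were 2.20 and 2.21 for PROT2 and 2.68 and 2.30 for UMAMIT17.

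**Figure D3:**
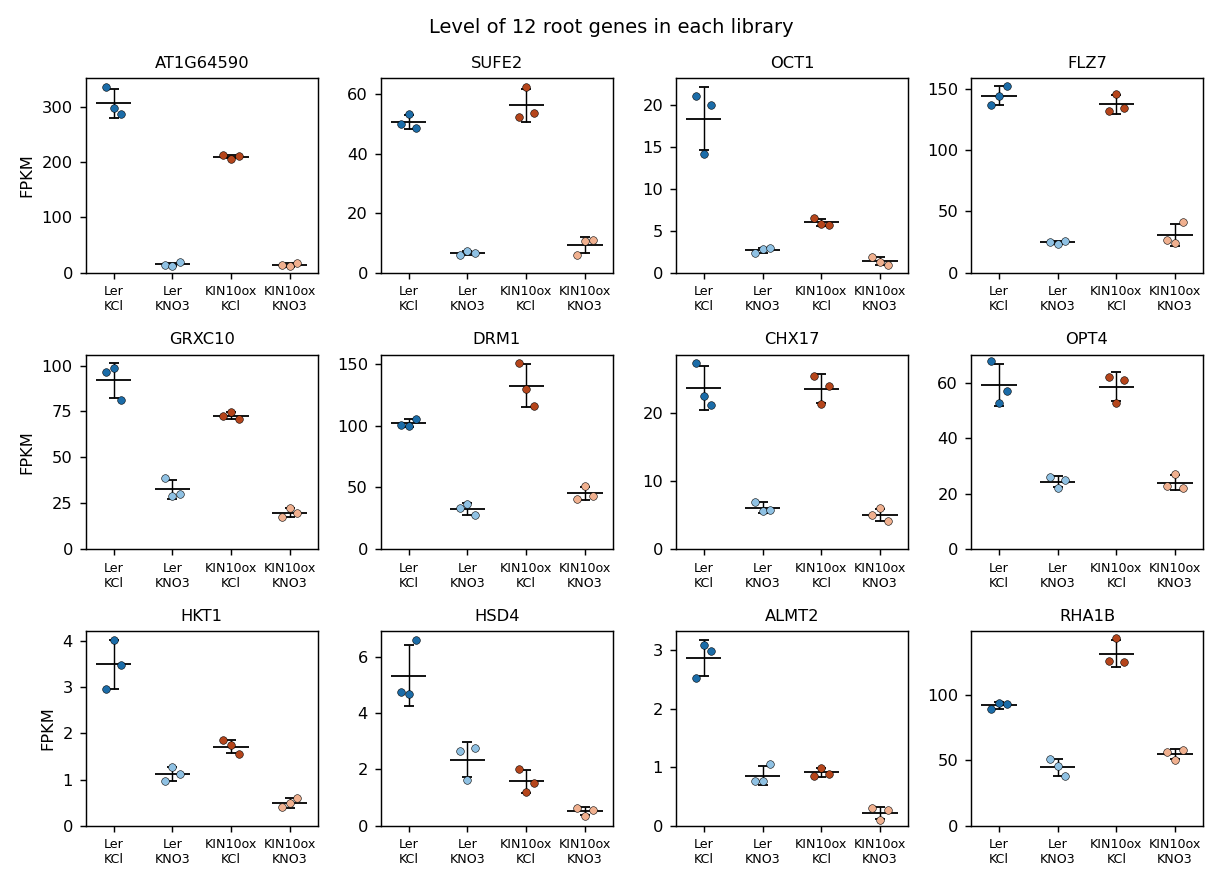
FPKM of 12 members in each root library (points, 3 per group), with the group mean (line) and SD (bar). KNO3 groups lie below KCl groups of the same genotype in all 12 panels, and OCT1, HKT1, HSD4 and ALMT2 lie lower in KIN10ox than in Ler at both treatments.

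A group of 5 members is tied to energy and dormancy signalling. FLZ proteins carry a zinc finger that binds SnRK1 subunits. FLZ7 stood at 136, 144 and 152 FPKM in Ler with KCl and at 25.0, 23.3 and 25.8 FPKM with KNO3. In KIN10ox it stood at 131, 146 and 134 FPKM and at 26.8, 24.0 and 41.1 FPKM. The falls were 5.83 ± 0.25 (SE) and 4.48 ± 0.79 (SE), and treatments did not overlap. FLZ2 had falls of 3.91 ± 0.23 (SE) and 3.78 ± 0.82 (SE), from 51.7 and 32.9 FPKM. DRM1 and DRM2, known as dormancy-associated genes of buds, stood at 102 ± 3.0 (SD) and 49.2 ± 7.2 FPKM in Ler with KCl and at 32.5 ± 4.6 and 19.8 ± 1.9 FPKM with KNO3. HSPRO1, of a family known to bind SnRK1, had falls of 3.23 and 2.09 at a level of 1.53 FPKM. DRM2 was on a list of 7 genes that SnRK1 raises, of which 3 were listed for roots. The other 2 listed were SEN1 and BCAT2.

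Kinases, receptors and signal peptides made up 11 members, with median falls of 2.36 in Ler and 2.58 in KIN10ox. CIPK14, a kinase of the calcium-regulated CBL network, was the most abundant of them, at 85.6, 77.4 and 85.0 FPKM in Ler with KCl and 34.3, 35.2 and 41.5 FPKM with KNO3. IDA, the peptide that triggers floral organ abscission, was at 1.01 ± 0.44 (SD) FPKM in Ler with KCl. Its falls were 2.36 ± 1.0 (SE) with overlapping libraries in Ler and 6.24 ± 1.9 (SE) in KIN10ox. The KIN10ox fall ran between low levels, from 0.93, 0.51 and 0.68 FPKM with KCl to 0.17, 0.09 and 0.08 FPKM with KNO3. The authors' deposited DESeq2 adjusted p for it was 0.133. IDA was one of the 3 members whose falls differed by at least 2-fold, with AT2G10940 and GPT2, a plastid glucose-6-phosphate translocator. GPT2 stood at 3.05, 0.80 and 1.46 FPKM in Ler with KCl and at 0.52, 0.56 and 1.46 FPKM with KNO3, so its Ler libraries overlapped. Its falls were 2.09 ± 1.1 (SE) in Ler and 4.21 ± 1.3 (SE) in KIN10ox. The Ler fall of GPT2 was 1.33 without KCl replicate 1 and 3.28 without KNO3 replicate 3, and with the latter the genotypes no longer differed by 2-fold. The 7 members with ubiquitin ligase domains had median falls of 2.15 and 2.39. Among them RHA1B, a RING-H2 protein, stood at 89.1, 93.6 and 93.0 FPKM in Ler with KCl and 51.0, 45.3 and 37.9 FPKM with KNO3. In KIN10ox RHA1B stood at 126, 143 and 125 FPKM and at 56.7, 50.5 and 57.8 FPKM. The 3 cell cycle inhibitors ICK1, SMR3 and SMR8, which restrain cyclin-dependent kinases, had falls of 2.03 to 3.03 in Ler and 2.20 to 2.37 in KIN10ox, with no overlap.

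Among enzymes of small molecules, AT5G37990, annotated as a methyltransferase that uses S-adenosylmethionine, was the most abundant member. It stood at 341, 343 and 342 FPKM in Ler with KCl and at 136, 141 and 152 FPKM with KNO3. In KIN10ox it stood at 284, 286 and 261 FPKM and at 130, 96.6 and 170 FPKM. AT5G67430, an acyl-CoA N-acyltransferase, stood at 24.9, 27.2 and 29.1 FPKM in Ler with KCl and at 4.34, 4.11 and 4.09 FPKM with KNO3. Its falls were 6.48 ± 0.32 (SE) in Ler and 5.13 ± 0.70 (SE) in KIN10ox, with no overlap in either. LOG7, which makes active cytokinin from its nucleotide, had falls of 2.28 and 2.51 from 59.0 and 62.8 FPKM.

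The 10 lipid-related members had falls of 2.10 to 14.0 in Ler and 2.21 to 73.4 in KIN10ox, and AT2G10940 set both upper ends. AT1G45010, with a TLC lipid-sensing domain, had falls of 9.81 ± 2.7 (SE) and 5.05 ± 0.55 (SE), but from 1.01 and 1.11 FPKM. AT2G10940, annotated as a lipid-transfer and protease inhibitor protein, stood at 6.03, 0.08 and 0.20 FPKM in Ler with KCl and at 6.26, 0.37 and 11.7 FPKM in KIN10ox with KCl. With KNO3 it was 0.21, 0.12 and 0.12 FPKM in Ler, and it was listed at 0 in 2 KIN10ox libraries and at 0.25 FPKM in the third. Its ratio of means in Ler was 14.0 ± 13 (SE) with overlapping libraries, and 0.933 without Ler replicate 1 with KCl. In KIN10ox it was 73.4 ± 83 (SE), 39.8 without replicate 3 with KCl, and 48.9 without replicate 1 or replicate 2 with KNO3. The same libraries were high in ESP, which steers glucosinolate breakdown towards nitriles: 5.26, 0.09 and 0.18 FPKM in Ler and 2.62, 0.23 and 1.06 FPKM in KIN10ox with KCl. The Ler ratio of ESP was 7.90 ± 7.5 (SE), and 0.579 without replicate 1. In KIN10ox it was 5.01 ± 3.3 (SE), 2.48 without KCl replicate 1 and 8.15 without KNO3 replicate 2. The summed leaf photosynthesis genes given above were highest in those libraries as well, and their part in these 2 ratios was not tested.

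The 11 chaperone, nucleic acid and cytoskeleton members had median falls of 2.43 in Ler and 2.46 in KIN10ox, and the 4 cell wall members 2.5 and 2.31. No role was assigned to 30 members, whose medians were 2.43 and 2.67 and whose falls ran from 2.01 to 5.11 in Ler. The most abundant of these was AT3G14280, at 243, 240 and 202 FPKM in Ler with KCl and at 103, 93.0 and 76.3 FPKM with KNO3. The files describe AT3G14280 as an LL-diaminopimelate aminotransferase, which was not used to give it a role. VUP1, named for its vascular expression, stood at 62.6 ± 3.3 (SD) and 31.1 ± 3.4 FPKM in Ler and at 58.8 ± 3.3 and 23.7 ± 6.7 FPKM in KIN10ox (n = 3 each).

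By the terms in the deposited files, 51 members (40.8%) were integral to membranes, beside 28.7% of all genes listed for roots, and 16 (12.8%) were placed in the chloroplast, beside 23.9%. The rule removed genes with a KEGG pathway, so these shares describe the set only. Members lay on all 5 chromosomes, 32, 12, 20, 21 and 40 on chromosomes 1 to 5, beside 309, 154, 209, 185 and 271 listed genes. In 4 pairs the members were neighbours. GLR1.2 and GLR1.3, glutamate receptor-like channel genes, lie 758 bases apart on the same strand and had falls of 3.82 and 2.61 in Ler and 4.00 and 3.14 in KIN10ox. AT5G37980 and AT5G37990 lie 781 bases apart on opposite strands, AT4G23870 and AT4G23880 521 bases apart on opposite strands, and FLZ2 and AT4G17680 7729 bases apart on the same strand. Whether counting used strand is not given in the sources used here, and GLR1.2 and GLR1.3 are copies that could share reads.

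Whether KIN10 overexpression changed the level of these genes was asked at each treatment. The rule set its level limit on Ler with KCl and none on KIN10ox. Its ratio limits also used the KCl and KNO3 means of both genotypes. Neither contrast is thus independent of the rule, and counts of members in a direction are given as a description. With KCl, 10 members were lower and 4 higher in KIN10ox, 14 of 124 tested (AT1G53620 did not pass the filter on low counts). That is 11.3% of members, against 13.8% of the 972 genes tested (6.07% lower and 7.72% higher; edgeR's quasi-likelihood test, Benjamini-Hochberg adjusted p under 0.05). Under 1 FPKM in KIN10ox with KCl were 6 members, of which UGT83A1, ALMT2, PME61 and AT1G22680 were among the 10 lower. They met the limit through Ler alone. Of the 119 members at 1 FPKM or more in both genotypes, 6 were lower and 4 higher with KCl, and 6 lower and 5 higher with KNO3. Another 15 genes met every other condition but were under 1 FPKM in Ler and at 1 FPKM or more in KIN10ox. Of these 6 passed the filter, and 0 were called at either treatment by edgeR or DESeq2 (at an unadjusted p under 0.05, 2 with KCl and 0 with KNO3). The median difference was -0.01 on the log2 scale for members and 0.09 for all genes tested. With KNO3, 8 were lower and 5 higher, 13 of 124 (10.5%), against 11.6% of all genes tested (8.95% lower and 2.67% higher). The medians were -0.05 and -0.19. Scaling by DESeq2's size factors over the listed genes turned this KNO3 split to 6 lower and 18 higher, 19.4% of members against 13.8% of all genes tested (5.35% lower and 8.44% higher), so there the share of members was above that of all genes. TMM over the listed genes gave 13 lower and 2 higher with KCl, 12.1% of members against 13.3% (7.92% lower and 5.35% higher). TMM turned the KNO3 split as well, to 5 lower and 17 higher, 17.7% of members against 11.7% (43 genes lower and 71 higher). DESeq2 gave 14 lower and 4 higher with KCl, 14.5% of members against 15.6% (83 genes lower and 69 higher).

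**Figure D4:**
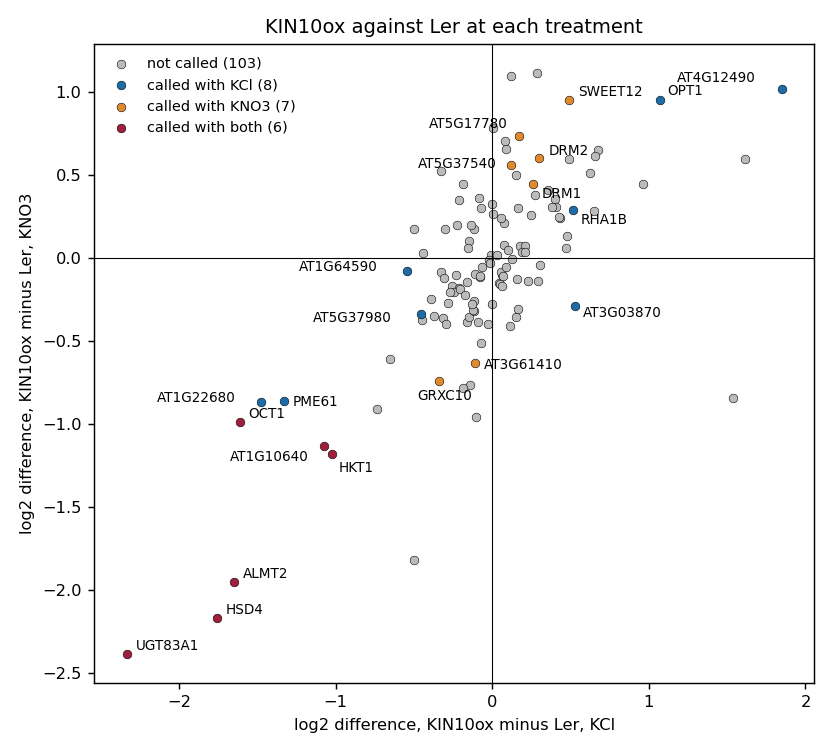
log2 difference of KIN10ox minus Ler with KCl (horizontal) and with KNO3 (vertical) for 124 members, from the edgeR fit. Coloured and named points passed adjusted p under 0.05 at 1 or both treatments, and the 6 called at both (UGT83A1, HSD4, ALMT2, OCT1, HKT1, AT1G10640) all lie at the lower left.

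The 6 members called at both treatments were lower in KIN10ox, a direction that the limit on Ler favours for UGT83A1 and ALMT2. OCT1, with the values given above, differed by -1.61 ± 0.21 (SE) with KCl (edgeR adjusted p = 0.000532) and by -0.98 ± 0.24 with KNO3 (0.0184). Ler and KIN10ox libraries of OCT1 did not overlap at either treatment. With KNO3 its call was lost without Ler replicate 2, without Ler replicate 3 or without KIN10ox replicate 2 of that treatment (adjusted p up to 0.0693), and with TMM over the listed genes. UGT83A1, a glycosyltransferase, stood at 2.10, 2.73 and 3.17 FPKM in Ler with KCl and at 0.72, 0.40 and 0.45 FPKM in KIN10ox. The difference was -2.33 ± 0.31 (SE) with KCl (edgeR adjusted p = 0.000574) and -2.38 ± 0.37 with KNO3 (0.0017).

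HSD4, a hydroxysteroid dehydrogenase-like gene, stood at 4.74, 4.68 and 6.60 FPKM in Ler with KCl and at 2.02, 1.2 and 1.51 FPKM in KIN10ox. With KNO3 it stood at 2.66, 1.62 and 2.77 FPKM in Ler and at 0.64, 0.35 and 0.57 FPKM in KIN10ox. The differences were -1.76 ± 0.30 (SE) and -2.16 ± 0.34, with edgeR adjusted p = 0.00241 and 0.0017. HSD4 has a near-identical copy in the genome, so its counts are uncertain. ALMT2, of the malate channel family, stood at 2.52, 3.08 and 2.99 FPKM in Ler with KCl and at 0.85, 0.99 and 0.89 FPKM in KIN10ox, a difference of -1.65 ± 0.29 (SE; edgeR adjusted p = 0.00263). With KNO3 the difference of ALMT2 was -1.95 ± 0.34 (0.0037).

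HKT1, which withdraws sodium from the xylem in roots, stood at 2.97, 4.03 and 3.49 FPKM in Ler with KCl and at 1.85, 1.74 and 1.56 FPKM in KIN10ox. It differed by -1.02 ± 0.21 (SE) with KCl and by -1.18 ± 0.24 with KNO3 (edgeR adjusted p = 0.00873 and 0.00811). AT1G10640, a pectin lyase-like gene of cell wall breakdown, differed by -1.07 ± 0.23 (SE) and -1.13 ± 0.25 (edgeR adjusted p = 0.0106 and 0.0114). Genotypes did not overlap in these genes at either treatment. OCT1, UGT83A1 and HSD4 were the 3 members still called with KCl when KIN10ox replicates 1 and 3 were left out, a fit in which 1 library stands for KIN10ox with KCl and is assumed to vary like the other groups.

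Called with KCl and not with KNO3, which does not show that the treatments differ, were PME61 (a pectin methylesterase), AT1G64590, AT5G37980 and AT1G22680, all lower, and RHA1B, OPT1, AT3G03870 and AT4G12490, all higher. For PME61 and AT1G22680 the limit on Ler favours the lower direction. OPT1, an oligopeptide transporter, was higher by 1.07 ± 0.32 (SE) with KCl and by 0.95 ± 0.34 with KNO3 (edgeR adjusted p = 0.0448 and 0.093). DESeq2 called OPT1 with KNO3 and not with KCl, and DESeq2 and TMM called RHA1B at both treatments. AT1G64590 differed by -0.54 ± 0.16 (SE; edgeR adjusted p = 0.0448), with all 3 KIN10ox libraries at 207 to 212 FPKM below the 287 to 335 FPKM of Ler, and its call was lost in 8 of 12 fits that left out 1 library. RHA1B was higher by 0.52 ± 0.12 (SE; edgeR adjusted p = 0.0135). AT4G12490 was the one called member whose libraries overlapped, at 1.56, 0.78 and 1.63 FPKM in Ler and 8.81, 4.02 and 1.57 FPKM in KIN10ox, and its call was lost in 9 of 12 such fits. Calls were lost in 8 of them for OPT1 and AT5G37980, in 9 for AT3G03870, in 10 for AT1G22680, and for RHA1B in the fit without KIN10ox replicate 2 with KCl. Called with KNO3 and not with KCl were SWEET12, DRM1, DRM2, AT5G37540 and AT5G17780, all higher, and GRXC10 and AT3G61410, both lower. The call of AT3G61410 was lost in 11 of 12 fits without 1 library and with DESeq2 (adjusted p = 0.134), TMM, no filter, the replicate block or only the groups compared. That of AT5G17780 was lost in 3 fits, without Ler replicate 1, Ler replicate 3 or KIN10ox replicate 1 with KNO3, and that of AT5G37540 in 2, without Ler replicate 2 or replicate 3 with KNO3.

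SWEET12, a sucrose exporter of the phloem, stood at 2.87, 2.44 and 3.01 FPKM in Ler with KNO3 and at 5.61, 5.92 and 4.67 FPKM in KIN10ox. The difference was 0.95 ± 0.17 (SE; edgeR adjusted p = 0.00446) and passed in all 12 fits without 1 library. GRXC10 differed by -0.74 ± 0.14 (SE; edgeR adjusted p = 0.00719), but DESeq2 gave 0.0540, and its call was lost with TMM too. DRM1 was higher by 0.45 ± 0.13 (SE) and DRM2 by 0.60 ± 0.17 (edgeR adjusted p = 0.0409 and 0.0418), and these calls were lost in 10 and 9 of 12 fits without 1 library.

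Whether the response to nitrate itself differed between the genotypes was tested as an interaction. The rule asks for a fall of at least 2-fold in each genotype and so limits this difference. No member was called, and none of the 972 genes (0.0%), by edgeR. At an unadjusted p under 0.05, edgeR found 4 of 124 members and 187 of 972 genes. At that limit DESeq2 found 22 members and 161 genes, and TMM over the listed genes 25 and 176. After adjustment DESeq2 called 3 members (AT1G64590, NUDT8 and AT5G37540), all with a difference above 0, and 20 genes (1.23% above 0 and 0.823% below). The lowest p belonged to AT3G03870, a transmembrane protein, with 9.62, 9.41 and 11.8 FPKM in Ler with KCl, 4.56, 4.51 and 4.15 FPKM with KNO3, and 15.0, 14.8 and 14.7 FPKM and 3.64, 2.78 and 4.36 FPKM in KIN10ox. Its response differed by -0.82 ± 0.23 (SE; edgeR adjusted p = 0.111). NUDT8, a nudix hydrolase, had 0.63 ± 0.26 (adjusted p = 0.219) and AT5G37540, an aspartyl protease, 0.44 ± 0.19 (0.221). The median of the difference by edgeR was -0.04 over members and -0.26 over all genes tested. With DESeq2 these medians were 0.27 and 0.05, and with TMM 0.28 and 0.06, so their sign depends on the scaling.

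Genes of related lists were looked up too. Of 6 NIGT1/HRS1/HHO repressors the authors listed 4, and all 4 were higher with KNO3 in both genotypes (edgeR; 53.8% of genes tested were called higher in Ler and 51.6% in KIN10ox). Their sum was 16.3 to 23.7 FPKM in Ler with KCl and 144 to 166 FPKM with KNO3. Their rise with KNO3 alone keeps these 4 out of the set, and the files also give them a transcription factor family. Of 16 genes of nitrogen uptake under starvation 1 was listed, NRT2.6, at 0.713 ± 0.36 (SD) FPKM in Ler with KCl and 1.59 ± 0.63 with KNO3. In KIN10ox NRT2.6 stood at 0.29 ± 0.046 (SD) and 0.153 ± 0.058 FPKM (n = 3 each). It was higher with KNO3 in Ler, was not called for nitrate in KIN10ox, and was lower in KIN10ox than in Ler with KNO3 (edgeR). The other 15 were not analysed here.

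In protoplasts, 6 members were among the 2065 genes listed, and 5 passed the filter on low counts. Libraries with NLP7 held 1536 to 2261 FPKM of NLP7, against 43.2 to 53.7 with GFP and 212 to 417 with NLP7 and KIN10, so the NLP7 transcript was lower when KIN10 was added. KIN10 was 287 to 546 FPKM in the latter and 26.2 to 33.1 FPKM in the others. With NLP7 against GFP, 3 of 5 members were higher and 2 lower, against 98.3% of the 1722 genes tested that were called (edgeR; 91.3% higher and 6.97% lower). With NLP7 and KIN10 against GFP, 3 were lower, against 37.2% of genes called in either direction (31.6% higher and 5.57% lower). With NLP7 and KIN10 against NLP7, 3 were lower, against 90.2% (3.83% higher and 86.4% lower). The authors selected the listed genes for a change against GFP, which sets such shares. With DESeq2 the splits became 1 higher and 3 lower for NLP7 against GFP, where 38.0% of all genes tested were higher and 20.6% lower. For NLP7 with KIN10 against NLP7 they became 2 higher and 2 lower, where 17.9% were higher and 34.3% lower. Both of the comparisons with GFP share the GFP libraries.

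AT2G10940 was at 19.8, 19.6 and 22.0 FPKM with GFP, 185, 134 and 126 FPKM with NLP7, and 15.6, 16.3 and 20.9 FPKM with NLP7 and KIN10. NLP7 libraries were above all others. The difference to GFP was 2.85 ± 0.18 (SE; edgeR adjusted p = 1.23e-09), and the difference of NLP7 with KIN10 to NLP7 was -3.08 ± 0.19 (4.65e-09). AT3G45730, of no assigned role, was at 79.0, 78.4 and 87.7 FPKM with GFP, 196, 162 and 162 FPKM with NLP7, and 45.1, 47.8 and 54.5 FPKM with both. The 3 groups of AT3G45730 did not overlap. Its differences were 1.07 ± 0.15 (SE) for NLP7 and -0.75 ± 0.15 for NLP7 with KIN10 (edgeR adjusted p = 4.59e-06 and 0.000863). Scaling over the listed genes turned the first to -0.60 with DESeq2. The authors' deposited log2 fold change for it was 1.03 (adjusted p = 3.44e-19, DESeq2 per the file headers).

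**Figure D5:**
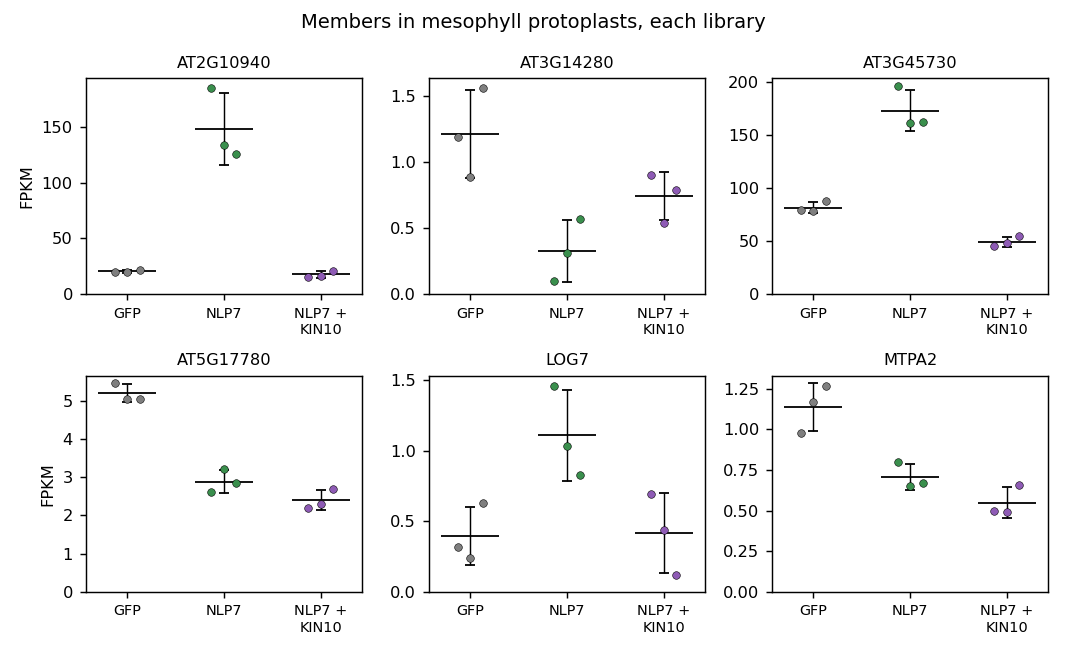
FPKM of the 6 members listed for protoplasts in each library (points, 3 per group), with mean (line) and SD (bar). AT2G10940, AT3G45730 and LOG7 are highest with NLP7, and AT3G14280, AT5G17780 and MTPA2 are highest with GFP.

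AT5G17780, an alpha/beta hydrolase, was at 5.48, 5.06 and 5.06 FPKM with GFP, 2.6, 3.22 and 2.84 FPKM with NLP7, and 2.19, 2.30 and 2.70 FPKM with both. It differed by -0.84 ± 0.19 (SE) and -1.13 ± 0.19 from GFP (edgeR adjusted p = 0.000505 and 0.000238). MTPA2 was at 1.14 ± 0.15 (SD), 0.707 ± 0.081 and 0.55 ± 0.095 FPKM (n = 3 each), with differences of -0.69 ± 0.26 (SE) and -1.06 ± 0.27 (edgeR adjusted p = 0.0174 and 0.00526). The first of these was lost without GFP replicate 3, NLP7 replicate 2 or NLP7 replicate 3 (adjusted p up to 0.0602). LOG7 was near 0.397 FPKM with GFP and 1.11 FPKM with NLP7, a difference of 1.44 ± 0.47 (SE; edgeR adjusted p = 0.00775), and 0.417 FPKM with both. Scaled over the listed genes, DESeq2 gave LOG7 -0.23 (adjusted p = 0.758). The authors' deposited log2 fold change of LOG7 for NLP7 against GFP was 1.41 (adjusted p = 0.0434, DESeq2 per the file headers). AT3G14280, at 202 to 243 FPKM in Ler roots with KCl, had 8 to 15 counts per library with GFP and 1 to 6 with NLP7. It did not pass the filter and was not tested here. The authors' deposited log2 fold change of AT3G14280 for NLP7 against GFP was -1.95 (DESeq2 adjusted p = 0.0383).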

How the data were processed

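Libraries were sequenced on a BGISEQ-500 per the labels' protocols, and HISAT, Bowtie2 and the TAIR10 build are named in the submitters' processing notes; their versions and how strand was counted are not stated there. The authors deposited, per the file headers, FPKM, TPM and expected counts for each library, with a log2 fold change, a p-value and an adjusted p-value from DESeq2 for their comparison, while the study's description names NOISeq. The deposited tables hold only genes the authors selected: 770 for Ler, 862 for KIN10ox, 1985 for NLP7 and 455 for NLP7 with KIN10, so every share called holds for these genes alone. Expected counts were not whole in 6.74% of root and 2.57% of protoplast genes and were rounded. Another 18 columns of per-sample values, outside the study's sample list, were not used.

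Library sizes were recovered by regressing counts over FPKM on exon length, for genes with 1 transcript and at least 200 counts. edgeR 4.0.16 (R 4.3.3) quasi-likelihood tests used these sizes without further scaling, genes kept by filterByExpr, all groups of a tissue and Benjamini-Hochberg adjustment over all genes tested, with a limit of 0.05; the script was tested on simulated data. Alternatives were DESeq2 1.42.0, TMM, no filter, a replicate block, only the groups compared, limma 3.58.1 on log2(FPKM + 1), and fits without 1 library or without KIN10ox KCl replicates 1 and 3. Per the labels, replicates within a group are biological (3 libraries), and precision rests on that number and on counting error, which alone sets floors. The members, role groups, gene lists and named genes were chosen with earlier results of these data known. Named were the 3 markers, the 10 highest and the 10 with the largest falls, the strongest calls of each comparison (at most 6 in roots and 8 in protoplasts; the 3 lowest p where none was called), members next to a limit, on a list or next to each other; others were chosen after their values were seen. Upstream windows came from RefSeq TAIR10.1, in which 1120 of 1128 listed root genes have the same start and end as in the files. Protein sequences were not used.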

Additional observations from a re-analysis of the deposited data

How the results depend on the processing

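The number of members was 129 by TPM, 126 by counts over library size, 184 with no minimum level, 187 with no annotation filter, 124 without KIN10ox KCl replicates 1 and 3, and 109 to 131 without 1 library; it was 70 with a minimum of 5 FPKM and 25 when each fall had to reach 3-fold, because fewer genes can meet these. In each of the 12 sets without 1 library, 76 of the 125 members were present. No paired analysis was possible for it because the count comes from a rule and no test.

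For KIN10ox against Ler with KCl, members called numbered 14 (11.3% of members, 13.8% of all genes tested) and 8 to 21 without 1 library. They numbered 18 with DESeq2 (14.5% and 15.6%) and 15 with TMM (12.1% and 13.3%). Shares of all genes tested are not given for fits without 1 library or with the replicate block. Changes in members in those fits cannot be told from changes over all genes. With KNO3 they numbered 13 (10.5% of members, 11.6% of all genes tested), 24 with DESeq2 (19.4% and 13.8%), 22 with TMM (17.7% and 11.7%), and 8 to 16 without 1 library. For the difference of responses they numbered 0, 3 with DESeq2, and 0 to 0 without 1 library. In protoplasts they numbered 4 to 6, 3 to 3 and 2 to 4 without 1 library, for NLP7 against GFP, NLP7 with KIN10 against GFP, and NLP7 with KIN10 against NLP7. The cause of these moves was not tested. With the replicate number as a block, members called numbered 11 with KCl, 11 with KNO3, 0 for the responses and 5, 3 and 3 in protoplasts. Same-numbered root libraries correlated by -0.255 to 0.366 in their deviations. With 3 libraries per group, these values cannot decide whether the numbers pair the libraries.

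DESeq2 and TMM scale on the listed genes, most of which respond. They moved the median of all genes by -0.10 (KCl), 0.21 (KNO3) and 0.31 to 0.32 (responses) in roots, and by -1.83 to -1.66 (NLP7 against GFP), -0.38 to -0.34 and 1.27 to 1.48 in protoplasts. With DESeq2 and TMM, NLP7 against GFP reversed for AT3G45730 (-0.60 and -0.77) and LOG7 (-0.23 and -0.38), and NLP7 with KIN10 against NLP7 reversed for LOG7 with TMM (0.15). The falls of AT2G10940 and ESP in Ler became 0.933 and 0.579 without Ler KCl replicate 1, and that of GPT2 1.33. Depth limits members under 2 FPKM.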
